A study of Homo sapiens with 6 samples.

Results

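The human genes that encode heterogeneous nuclear ribonucleoproteins (hnRNPs), serine/arginine-rich (SR) proteins, factors of the U2 small nuclear ribonucleoprotein (snRNP) and core snRNP proteins were followed in NCI-H1299 cells silenced for complement factor B. Members were the protein-coding genes whose symbols begin with HNRNP, SRSF and a digit, SF3A, SF3B, U2AF or SNRP, and 58 of the 28495 genes in the deposited table met this rule. They comprised 22 hnRNP genes, 12 SR genes, 13 genes of U2 factors and 11 snRNP core genes. A gene was tested if its mean level over all 6 libraries was at least 0.5 FPKM (fragments per kilobase of gene, scaled to the reads of the library), which 55 members passed. HNRNPCL1, SRSF12 and U2AF1 did not.

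The study compared 3 libraries of cells with CFB silenced (sh-CFB, named as short hairpin samples in the titles) with 3 libraries of control cells (sh-NC). All were made from poly(A) RNA of the same line, with no other treatment in the labels, and the table's column names use the form "si" for the same samples, so whether hairpins or siRNAs were used stays unknown here. NCI-H1299 is an established human lung cancer line, labelled as adenocarcinoma. No label says that the 3 samples of a group were separate cultures. The p-values thus reflect how far these samples scatter, which may be technical variation.

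Depth ran from 26.2 M to 38.4 M reads in sh-CFB libraries and from 32.9 M to 40.0 M in sh-NC libraries. CFB itself had 0, 0 and 2 reads in sh-CFB replicates 1, 2 and 3, against 1, 6 and 5 reads in sh-NC replicates 1, 2 and 3, too few to check the labels library by library. The epithelial keratin KRT18 was at 135 to 203 FPKM in sh-CFB and 138 to 207 FPKM in sh-NC. The mesenchymal filament gene VIM was at 392 to 477 and 381 to 446 FPKM, while CDH1 was at or near 0 in every library. The other epithelial markers read averaged 44.2 (KRT8), 1.47 (KRT7), 0.114 (KRT19) and 0.0559 FPKM (EPCAM) over all 6 libraries. The other mesenchymal markers averaged 2.01 (CDH2), 1.66 (FN1) and 2.22 FPKM (ZEB1). Markers of the lung lineage (NKX2-1, NAPSA, SFTPB, SFTPC and SFTPA1) summed to at most 0.371 FPKM in sh-CFB and 0.679 FPKM in sh-NC libraries, and those of immune cells to at most 0.0174 and 0.0758 FPKM. The libraries also differed within groups by the GC content of genes, an axis that partly overlapped with the group. Genes rich in GC stood high in sh-CFB replicate 1 and low in sh-NC replicate 1. The Spearman correlation between GC content and a library's deviation from each gene's mean, taken over genes that are not independent replicates, was 0.60, -0.10 and -0.16 for the sh-CFB libraries, against -0.55, -0.25 and 0.23 for the sh-NC libraries in replicate order. Beside the main values, results are also given as composition-corrected values and without both replicate 1 libraries. For composition-corrected values, a smooth trend on GC content and gene length was removed in each library. The fit also removed each library's mean shift over the fitted genes, so these values are re-centred as well.

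Splicing removes introns from pre-mRNA in a spliceosome assembled from snRNPs. SR proteins and hnRNPs bind the pre-mRNA and, often with opposite effect, steer which splice sites are used, while U2AF and the SF3a and SF3b complexes help the U2 snRNP to recognise the 3′ end of the intron and the branch point. Sm proteins form the ring around the RNA of most snRNPs. Many SR and hnRNP genes are known to limit their own protein through exons that send the transcript to decay, which a level per gene cannot show.

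In sh-CFB cells, 16 of the 55 tested members fell and none rose, while 39 did not pass the test. Of all 12466 tested genes 5.71% fell and 1.74% rose by the same rule, an adjusted p under 0.05 with limma, and 7.45% of all tested genes changed in either direction. Of the tested members 29.1% fell. FPKM is a share of each library, so less RNA of these genes per cell and more RNA of others cannot be told apart. No member was higher at an unadjusted p under 0.05 either (0 of 55), nor past limma voom's adjusted test on reads recovered from the FPKM steps, while 37 were lower at an unadjusted p under 0.05. At that level 18.6% of all tested genes were lower and 7.28% higher. The members that fell were HNRNPM, HNRNPAB, HNRNPA2B1, HNRNPU, HNRNPD, HNRNPUL2 and HNRNPK among hnRNPs, SRSF2, SRSF7 and SRSF3 among SR proteins, SF3A3, SF3B3, U2AF2 and SF3B4 among U2 factors, and SNRPA1 and SNRPD1 in the snRNP core. The log2 fold change was negative for 52 of 55 members, beside 67.7% of all tested genes, for 49 members with median-of-ratios factors and for 48 in composition-corrected values. Every sh-CFB library lay below every sh-NC library for 38 of 55 members, and for 23.6% of all tested genes.

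The median log2 fold change of the members was -0.40, beside -0.15 over all tested genes. With median-of-ratios factors these medians were -0.20 and 0.02, and in composition-corrected values -0.23 and 0.01. The members that fell numbered 6 with median-of-ratios factors (HNRNPM, HNRNPAB, HNRNPA2B1, SRSF2, SRSF3 and SF3A3), where 1.11% of all tested genes fell, and 15 in composition-corrected values, where 6.12% fell. They numbered 14 without both replicate 1 libraries, where the median log2 fold change was -0.32 for members, beside -0.0014 over all tested genes. Leaving out single libraries gave 2 without sh-CFB replicate 2 (HNRNPM and HNRNPAB), and 3 without sh-NC replicate 2 (these and U2AF1L5). The number was 8 when either sh-CFB replicate 3 or sh-NC replicate 1 was dropped. It was 10 with sh-NC replicate 3 dropped, and 11 with sh-CFB replicate 1 dropped. Fewer of all tested genes fell as well whenever 1 library was left out. Whether these drops differed in size between the members and all tested genes was not tested. With sh-CFB replicate 2 dropped, the median log2 fold change was -0.44 for members, beside -0.19 over all tested genes. With sh-NC replicate 2 dropped, these medians were -0.41 and -0.15. HNRNPM and HNRNPAB passed in all 16 alternatives that use no replicate block, and no member passed in the other 2, which do. SRSF2, SRSF3, SF3A3 and HNRNPA2B1 passed in 14 of them.

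**Figure D1:**
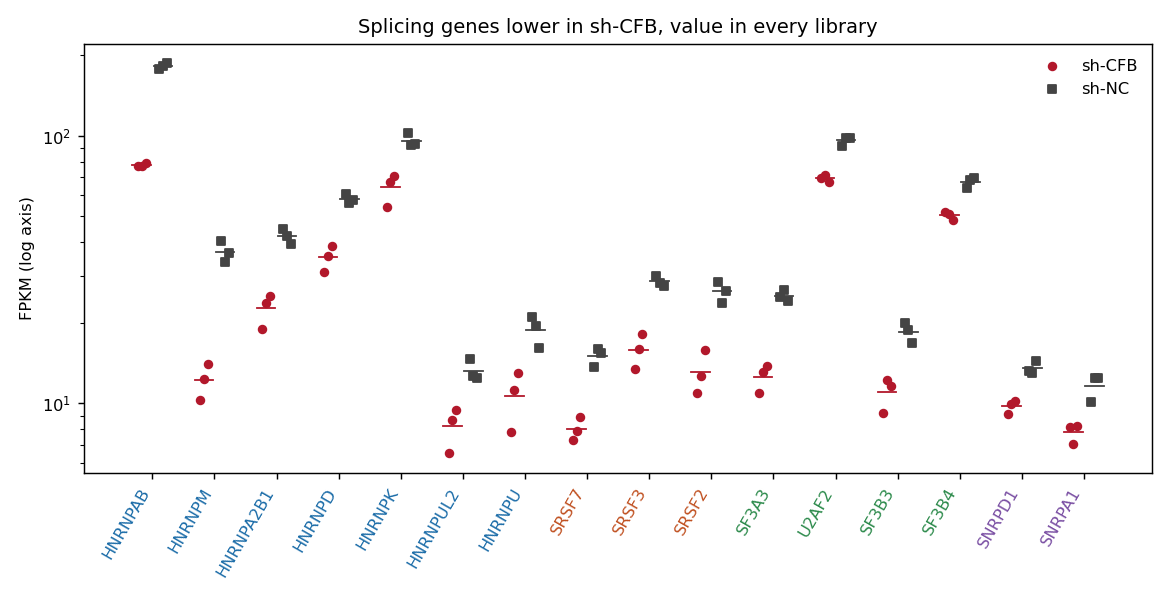
FPKM on a log axis of the 16 members that fell, with 1 point per library (sh-CFB circles on the left of each pair, sh-NC squares on the right) and a bar at each group mean; label colours mark the 4 classes. No sh-CFB point of any of the 16 genes reaches the lowest sh-NC point of that gene, and the widest separation is that of HNRNPM at 10.3 to 14.0 against 33.8 to 40.5 FPKM.

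Promoter windows are shown for the members that passed in all 16 alternatives without a replicate block (HNRNPM and HNRNPAB), for the U2 factor and an SR gene that fell in 14 of 16 (SF3A3 and SRSF3) and for SNRPA, whose level was about equal in both groups. RefSeq gives windows of 250 bases before to 50 bases after a transcription start for 52 of the 58 members, on GRCh38.p14. The sequences read 5′ to 3′ on the gene's strand, and capitals mark matches, on either strand, to 5 motifs. The AP-1 site was searched as TGACTCA. The E-box was searched as CACGTG, which reads the same on both strands. The CCAAT box was searched by those letters. The GC box was searched as GGGCGG. The TATA box was searched as TATAAA. None of these letter strings contains another.
HNRNPM (chr19:8444725-8445024, forward strand): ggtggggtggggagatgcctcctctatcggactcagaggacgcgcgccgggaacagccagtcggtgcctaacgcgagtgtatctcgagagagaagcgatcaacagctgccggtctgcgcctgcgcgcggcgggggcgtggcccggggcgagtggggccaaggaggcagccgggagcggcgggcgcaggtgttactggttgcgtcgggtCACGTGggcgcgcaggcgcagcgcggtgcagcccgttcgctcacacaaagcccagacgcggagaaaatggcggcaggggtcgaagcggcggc
HNRNPAB (chr5:178204283-178204582, forward strand): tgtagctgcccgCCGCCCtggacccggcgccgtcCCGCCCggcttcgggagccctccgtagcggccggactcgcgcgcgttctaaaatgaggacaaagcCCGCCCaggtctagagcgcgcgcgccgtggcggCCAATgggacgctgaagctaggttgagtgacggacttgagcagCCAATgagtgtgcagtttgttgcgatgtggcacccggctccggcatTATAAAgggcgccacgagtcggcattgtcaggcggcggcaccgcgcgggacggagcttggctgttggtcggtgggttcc
SF3A3 (chr1:37989973-37990272, reverse strand): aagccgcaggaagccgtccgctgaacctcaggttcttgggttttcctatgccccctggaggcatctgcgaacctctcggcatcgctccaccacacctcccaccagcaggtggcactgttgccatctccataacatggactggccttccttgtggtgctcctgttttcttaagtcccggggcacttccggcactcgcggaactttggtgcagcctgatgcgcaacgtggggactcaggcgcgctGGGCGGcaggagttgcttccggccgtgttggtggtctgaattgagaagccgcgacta
SRSF3 (chr6:36594112-36594411, forward strand): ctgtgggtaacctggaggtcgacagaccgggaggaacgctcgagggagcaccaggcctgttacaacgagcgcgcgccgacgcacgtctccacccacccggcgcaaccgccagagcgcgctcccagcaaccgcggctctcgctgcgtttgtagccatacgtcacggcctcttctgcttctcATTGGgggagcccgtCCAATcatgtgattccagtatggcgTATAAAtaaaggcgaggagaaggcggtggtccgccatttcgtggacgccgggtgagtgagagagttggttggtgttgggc
SNRPA (chr19:40750953-40751252, forward strand): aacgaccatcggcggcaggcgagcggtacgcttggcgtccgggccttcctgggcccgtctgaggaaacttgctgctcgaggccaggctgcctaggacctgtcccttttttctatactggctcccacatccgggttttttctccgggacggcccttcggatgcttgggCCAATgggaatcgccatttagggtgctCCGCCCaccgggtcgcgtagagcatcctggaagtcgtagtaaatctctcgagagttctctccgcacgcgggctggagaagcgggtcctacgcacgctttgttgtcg

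The window of HNRNPM held 1 E-box and none of the other strings. That of HNRNPAB held 3 GC boxes, 2 CCAAT boxes and 1 TATA box, and that of SRSF3 held 2 CCAAT boxes and 1 TATA box. The windows of SF3A3 and SNRPA each held 1 GC box, with 1 CCAAT box in SNRPA as well. The AP-1 string is the site that FOS, named in the series title, binds with JUN proteins. It was in 0 of the 15 windows of members that fell, in 2 of the 69 windows of tested members and in 4.95% of all 35116 windows. The 15 windows covered 13 of the 16 members that fell, and the 69 windows covered 49 of the 55 tested members. The E-box was in 2 of the 15 windows, in 14.5% of the windows of tested members and in 7.26% of all windows. The CCAAT box was in 7 of the 15, in 39.1% and in 34.6%, in the same order. The GC box was in 10 of the 15, in 55.1% and in 45%. The TATA box was in 4 of the 15, in 10.1% and in 11.5%. These counts describe letters in a window and were not tested.

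Among hnRNPs, 7 of 21 tested genes fell (33.3%, beside 5.71% of all tested genes), 0 rose and 14 did not pass. HNRNPM (ENSG00000099783), which binds GU-rich RNA and regulates alternative exons, stood at 10.3, 12.3 and 14.0 FPKM in sh-CFB replicates 1, 2 and 3, against 40.5, 33.8 and 36.5 FPKM in sh-NC replicates 1, 2 and 3. The sh-CFB values were all below the sh-NC values, with means of 12.2 ± 1.86 and 36.9 ± 3.35 FPKM (SD, n = 3 each). On GRCh38 it occupies chr19:8444767-8489114, forward strand. Its log2 fold change was -1.56 (SE 0.13, adjusted p = 0.00613 with limma), or 2.95-fold lower. The tested members whose levels followed HNRNPM most closely over the 6 libraries were HNRNPD, SRSF3, SRSF2, HNRNPA2B1 and SF3A3 (Pearson r 0.995 to 0.987, a description over libraries that fall into 2 groups).

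HNRNPAB, an RNA-binding protein of the same group as HNRNPD, had 77.5, 77.2 and 79.4 FPKM in sh-CFB libraries and 179, 183 and 187 FPKM in sh-NC libraries. The spread within either group was small, at 78.0 ± 1.23 and 183 ± 4.04 FPKM (SD, n = 3 each), and the log2 fold change was -1.22 (SE 0.08, adjusted p = 0.00377). Its exons overlap those of PHYKPL on the opposite strand by 196 bases, and PHYKPL averaged 4.15 FPKM. HNRNPAB was the most abundant of the hnRNPs that fell.

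HNRNPA2B1, which encodes the abundant A2 and B1 proteins, had 19.0, 23.8 and 25.1 FPKM in sh-CFB and 44.8, 42.4 and 39.6 FPKM in sh-NC libraries. HNRNPD (AUF1), known for binding AU-rich elements in short-lived mRNAs, had 31.0, 35.7 and 38.9 FPKM in sh-CFB and 60.7, 55.9 and 57.7 FPKM in sh-NC libraries. In both genes sh-CFB replicate 1 was the lowest library and the groups did not overlap. Their log2 fold changes were -0.89 (SE 0.12, adjusted p = 0.0129) and -0.72 (SE 0.11, adjusted p = 0.0135). In composition-corrected values HNRNPA2B1 stood at -0.69 (adjusted p = 0.0222) and HNRNPD at -0.55, which did not pass (adjusted p = 0.0671). HNRNPA2B1 shares 368 exonic bases on the opposite strand with CBX3, at 9.33 FPKM.

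HNRNPK, which binds C-rich sequences, had 54.3, 67.6 and 70.7 FPKM in sh-CFB and 103, 92.3 and 93.1 FPKM in sh-NC libraries, a log2 fold change of -0.58 (SE 0.12, adjusted p = 0.0312), and stood at -0.32 (adjusted p = 0.0638) in composition-corrected values. HNRNPU, a nuclear scaffold protein, fell by 0.81 (adjusted p = 0.0453) and its relative HNRNPUL2 by 0.67 (adjusted p = 0.0440). The third member of that family, HNRNPUL1, did not pass, at 107, 123 and 125 FPKM in sh-CFB and 155, 150.4 and 138 FPKM in sh-NC libraries (log2 fold change -0.32, adjusted p = 0.101). The groups did not overlap in any of these 4 genes. HNRNPUL1 shares 215 exonic bases on the opposite strand with TGFB1, at 179 FPKM.

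HNRNPA1, the most abundant hnRNP transcript and a known repressor of exons, did not pass. Its levels were 234, 272 and 302 FPKM in sh-CFB and 319, 304 and 294 FPKM in sh-NC libraries, so the groups overlapped, with a log2 fold change of -0.19 (adjusted p = 0.352). The sign turned with median-of-ratios factors (0.02) and in composition-corrected values (0.08). HNRNPA1 has many processed copies, and rows annotated as hnRNP pseudogenes held 9.10% to 9.75% of the summed hnRNP FPKM in sh-CFB libraries and 7.85% to 8.24% in sh-NC libraries, and how reads shared between copies were assigned is not stated. Its coding retrocopy HNRNPA1L3, which an older annotation names as a pseudogene, had 9.27 to 9.72 FPKM in sh-CFB and 10.4 to 13.1 FPKM in sh-NC libraries (log2 fold change -0.29, adjusted p = 0.173).

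The other tested hnRNPs that did not pass had negative log2 fold changes between -0.64 (HNRNPR, adjusted p = 0.0747) and -0.19 (HNRNPLL, adjusted p = 0.544). In composition-corrected values HNRNPF stood at 0.08 and HNRNPLL at 0.00. HNRNPC, which packages nascent transcripts, was at 75.3 to 91.7 FPKM in sh-CFB and 105 to 110.0 FPKM in sh-NC libraries (-0.33, adjusted p = 0.0887). HNRNPF, which binds G-runs, was at 94.3 to 115 FPKM in sh-CFB and 115 to 129 FPKM in sh-NC libraries (-0.20, adjusted p = 0.272). In composition-corrected values 7 hnRNPs fell, among them HNRNPR (-0.48, adjusted p = 0.0228) and HNRNPA3 (-0.37, adjusted p = 0.0356) in place of HNRNPD and HNRNPK. The count of hnRNPs that fell was 3 with median-of-ratios factors, 4 without any one of sh-CFB replicate 3, sh-NC replicate 1 and sh-NC replicate 3, and 2 when either replicate 2 library was left out. HNRNPCL1, a paralogue of HNRNPC, was near 0, with at most 0.0336 FPKM in sh-CFB and 0.0268 FPKM in sh-NC libraries.

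**Figure D2:**
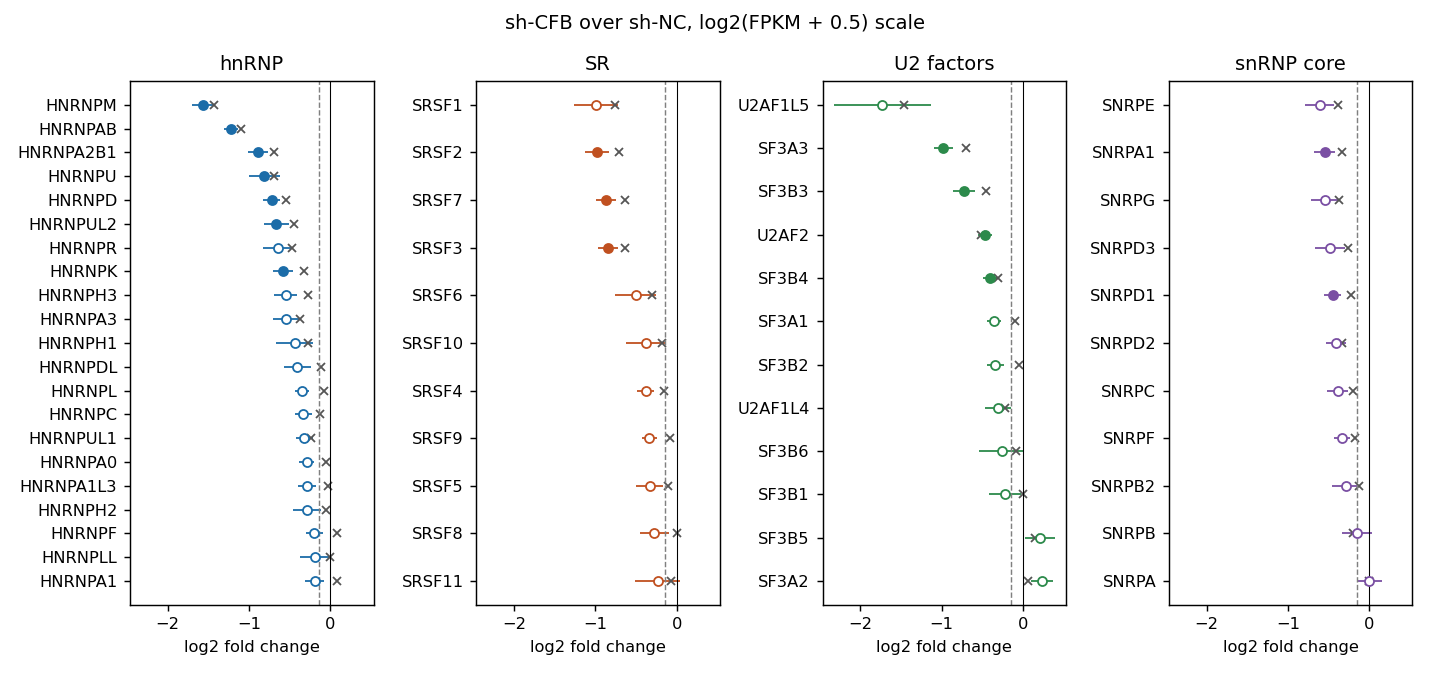
Log2 fold change (sh-CFB over sh-NC, log2(FPKM + 0.5) scale) of the 55 tested members by class, with bars of 1 SE; filled circles passed the test, crosses mark the composition-corrected value, and the dashed line marks the median of all tested genes at -0.15. Filled circles lie left of that line in all 4 classes, from -1.56 for HNRNPM to -0.41 for SF3B4.

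Among SR proteins, 3 of 11 tested genes fell (27.3%, beside 5.71% of all tested genes), 0 rose and 8 did not pass. SRSF2 (SC35), a nuclear protein that activates exons, had 10.9, 12.6 and 15.8 FPKM in sh-CFB and 28.6, 23.8 and 26.4 FPKM in sh-NC libraries. SRSF3, the smallest family member, had 13.4, 16.0 and 18.2 FPKM in sh-CFB and 30.1, 28.2 and 27.6 FPKM in sh-NC libraries. SRSF7, whose RNA-recognition motif resembles that of SRSF3, had 7.31, 7.87 and 8.87 FPKM in sh-CFB and 13.7, 16.0 and 15.5 FPKM in sh-NC libraries. In all 3 genes sh-CFB replicate 1 was lowest, and no sh-CFB library reached a sh-NC library. Their log2 fold changes were -0.98 (SE 0.15, adjusted p = 0.0135) for SRSF2, -0.84 (SE 0.13, adjusted p = 0.0135) for SRSF3 and -0.87 (SE 0.12, adjusted p = 0.0123) for SRSF7. All 3 also passed in composition-corrected values, at -0.70, -0.64 and -0.63. SRSF2 shares 1106 exonic bases on the opposite strand with MFSD11, at 1.26 FPKM.

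SRSF1 (SF2/ASF), the founding SR protein, had the lowest log2 fold change of the class at -0.99 but was measured at low levels with a wide spread. It stood at 1.46, 3.05 and 2.97 FPKM in sh-CFB and 6.81, 4.70 and 4.48 FPKM in sh-NC libraries, and did not pass (SE 0.27, adjusted p = 0.0646). It passed in composition-corrected values (-0.76, adjusted p = 0.0224). The most abundant SR transcripts, SRSF5 and SRSF9, did not pass. SRSF5 had 19.5, 27.7 and 31.8 FPKM in sh-CFB and 32.4, 32.1 and 33.4 FPKM in sh-NC libraries (-0.33, adjusted p = 0.261), so sh-CFB replicate 1 stood well below the other 5 libraries. SRSF9 had 24.1, 24.7 and 27.6 FPKM in sh-CFB and 30.5, 33.2 and 33.0 FPKM in sh-NC libraries (-0.34, adjusted p = 0.0752), and its exons overlap GATC on the opposite strand by 1729 bases.

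SRSF4 (-0.38), SRSF6 (-0.50), SRSF8 (-0.27), SRSF10 (-0.38) and SRSF11 (-0.23) had adjusted p-values of 0.0722 to 0.648, and in the last 4 the groups overlapped. SRSF12 was below the filter, at 0.252, 0.238 and 0.298 FPKM in sh-CFB and 0.156, 0.154 and 0.254 FPKM in sh-NC libraries, and the exact permutation test (two-sided) gave p = 0.3, where 0.1 is the smallest that 3 against 3 libraries can give. The class count was 2 with median-of-ratios factors and 0 without sh-CFB replicate 2 or without sh-NC replicate 2.

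Among U2 factors, 4 of 12 tested genes fell (33.3%, beside 5.71% of all tested genes), 0 rose and 8 did not pass, and the subunits of a single complex differed in their values. SF3A3, a subunit of the SF3a complex, had 10.9, 13.1 and 13.8 FPKM in sh-CFB and 24.9, 26.5 and 24.3 FPKM in sh-NC libraries, a log2 fold change of -0.98 (SE 0.11, adjusted p = 0.00910). SF3A1, which also contacts the U1 snRNP, had 17.1, 16.9 and 17.6 FPKM in sh-CFB and 23.0, 22.2 and 21.1 FPKM in sh-NC libraries (-0.35, adjusted p = 0.0555). SF3A2 had 72.7, 58.7 and 56.7 FPKM in sh-CFB and 45.3, 57.4 and 56.6 FPKM in sh-NC libraries (0.24, adjusted p = 0.320). The groups were apart for SF3A3 and SF3A1 and overlapped for SF3A2, and the differences between subunits were not tested. SF3A2 shares 398 exonic bases on the opposite strand with PLEKHJ1, at 20.5 FPKM.

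In SF3b, SF3B3 had 9.18, 12.3 and 11.6 FPKM in sh-CFB and 19.9, 18.7 and 16.8 FPKM in sh-NC libraries (-0.73, SE 0.14, adjusted p = 0.0236). SF3B4 had 52.0, 51.1 and 48.6 FPKM in sh-CFB and 63.8, 68.6 and 69.9 FPKM in sh-NC libraries (-0.41, SE 0.09, adjusted p = 0.0328). Both passed in composition-corrected values, at -0.46 and -0.31, and neither passed with median-of-ratios factors, at -0.53 (adjusted p = 0.0554) for SF3B3 and -0.21 (adjusted p = 0.545) for SF3B4. SF3B1, the subunit that holds the branch point and is a known target of splicing inhibitors, was at 5.79, 7.59 and 8.90 FPKM in sh-CFB and 10.3, 9.10 and 6.84 FPKM in sh-NC libraries (-0.22, adjusted p = 0.520).

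The most abundant members of the class, SF3B5 and SF3B6, are small subunits of the same complex and did not pass. SF3B5 had 798, 637 and 557 FPKM in sh-CFB and 467, 563 and 699 FPKM in sh-NC libraries (0.21, adjusted p = 0.530). SF3B6 had 74.2, 153 and 94.9 FPKM in sh-CFB and 161, 118 and 97.5 FPKM in sh-NC libraries (-0.26, adjusted p = 0.601). Both ranged as widely within groups as between them, and without both replicate 1 libraries their signs turned, to -0.08 and 0.17. SF3B2, a further SF3b subunit, was at 28.1 to 33.7 FPKM in sh-CFB and 39.0 to 41.6 FPKM in sh-NC libraries (-0.34, adjusted p = 0.0885).

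U2AF2, the large subunit of U2AF that binds the polypyrimidine tract, had 69.7, 71.4 and 67.1 FPKM in sh-CFB and 91.7, 98.6 and 98.2 FPKM in sh-NC libraries (-0.47, SE 0.08, adjusted p = 0.0209). It stood at -0.52 (adjusted p = 0.0107) in composition-corrected values and at -0.26 (adjusted p = 0.418) with median-of-ratios factors. Its partner U2AF1, which reads the AG at the end of the intron, cannot be measured reliably here. GRCh38 holds a near-identical copy of the gene, U2AF1L5 (chromosome 21 from 6484623 to 6499261, with U2AF1 from 43092956 to 43107587), and both together held 319, 224 and 206 reads in sh-CFB and 1581, 349 and 2188 reads in sh-NC libraries, beside 7527 to 16249 reads for U2AF2 in single libraries.

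U2AF1 alone was listed at 0.790, 0.146 and 0.108 FPKM in sh-CFB and 0.165, 0.302 and 0.140 FPKM in sh-NC libraries (two-sided exact permutation p = 0.9). U2AF1L5 was at 0.305, 0.458 and 0.375 FPKM in sh-CFB and 3.44, 0.483 and 5.83 FPKM in sh-NC libraries, and its log2 fold change of -1.73 (SE 0.60, adjusted p = 0.122) rests on 2 sh-NC libraries. How the counting treated reads that fit both copies is not given in the sources used here. U2AF1L4, a shorter relative, was at 0.625 to 0.835 FPKM in sh-CFB and 0.947 to 1.13 FPKM in sh-NC libraries (-0.31, adjusted p = 0.265), with 332 exonic bases shared on the opposite strand with PSENEN, at 28.1 FPKM. The class count was 1 with median-of-ratios factors, 1 without sh-CFB replicate 3, 1 without sh-NC replicate 1, 0 without sh-CFB replicate 2, and 1 (U2AF1L5) without sh-NC replicate 2.

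In the snRNP core, 2 of 11 tested genes fell (18.2%, beside 5.71% of all tested genes), 0 rose and 9 did not pass. SNRPD1, a protein of the Sm ring, had 9.12, 9.97 and 10.2 FPKM in sh-CFB and 13.2, 13.0 and 14.4 FPKM in sh-NC libraries (-0.45, SE 0.10, adjusted p = 0.0440). SNRPA1, the U2 A′ protein, had 8.18, 7.05 and 8.23 FPKM in sh-CFB and 10.1, 12.4 and 12.5 FPKM in sh-NC libraries (-0.55, SE 0.13, adjusted p = 0.0463). The groups did not overlap in either gene, but neither passed in composition-corrected values (-0.23 and -0.33), and no gene of the class fell in them. No gene of the class fell with median-of-ratios factors, with limma voom, or when any single library was left out. Without both replicate 1 libraries SNRPA1 and SNRPC fell and SNRPD1 did not pass.

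Other Sm genes had negative log2 fold changes and did not pass. SNRPD2, the most abundant of them, had 453, 499 and 471 FPKM in sh-CFB and 573, 598 and 724 FPKM in sh-NC libraries (-0.41, adjusted p = 0.0851). SNRPE (-0.61), SNRPG (-0.54), SNRPF (-0.33) and SNRPD3 (-0.48) had adjusted p-values of 0.0823 to 0.153, with no overlap between groups. SNRPD3, at a mean of 2.65 FPKM, shares 321 exonic bases on the opposite strand with GUCD1, at 31.5 FPKM. SNRPB had 237, 182 and 175 FPKM in sh-CFB and 177, 214 and 274 FPKM in sh-NC libraries (-0.15, adjusted p = 0.644), and its sign turned with median-of-ratios factors (0.05) and without sh-NC replicate 3 (0.01). Of the proteins specific to the U1 snRNP, SNRPC was at 119 to 131 FPKM in sh-CFB and 137 to 189.8 FPKM in sh-NC libraries (-0.39, adjusted p = 0.111), and SNRPA at 75.3, 58.8 and 63.7 FPKM in sh-CFB and 56.3, 62.9 and 79.3 FPKM in sh-NC libraries (0.00, SE 0.15, adjusted p = 0.994). SNRPB2, of the U2 snRNP, stood at -0.29 (adjusted p = 0.355).

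The libraries within a group were not equal for these classes. As deposited, the median SR gene deviated from its mean over 6 libraries by -0.65, -0.15 and -0.05 on the log2 scale in sh-CFB replicates 1, 2 and 3 and by 0.46, 0.19 and 0.20 in sh-NC replicates 1, 2 and 3, and the median over all tested genes by -0.26, -0.01 and 0.03 and by 0.20, 0.07 and -0.02. In composition-corrected values the SR values were -0.17, -0.18 and -0.10 in sh-CFB libraries, against 0.03, 0.06 and 0.32 in sh-NC libraries. The hnRNP medians after correction were -0.10, -0.16 and -0.13 in sh-CFB libraries, against 0.07, 0.12 and 0.21 in sh-NC libraries. Groups stayed apart in these 2 classes and in the U2 factors. In the snRNP core they overlapped after correction, at 0.03, -0.17 and -0.20 in sh-CFB libraries, against -0.11, 0.09 and 0.29 in sh-NC libraries. Class medians carry no test.

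**Figure D3:**
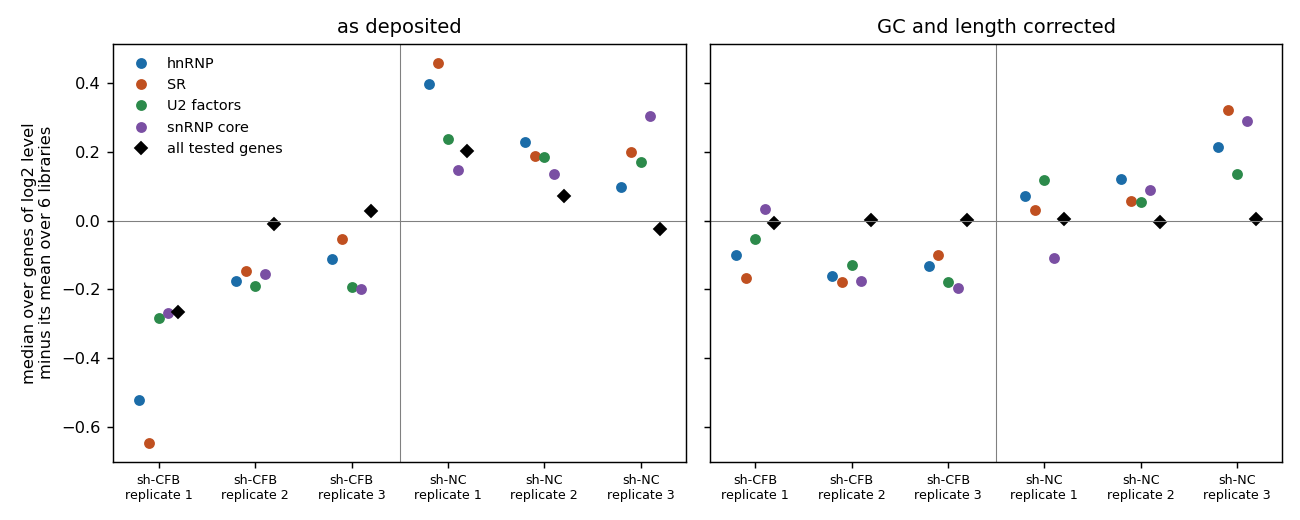
Median over the tested genes of each class of the log2(FPKM + 0.5) level minus its mean over the 6 libraries, 1 point per library, as deposited (left panel) and in composition-corrected values (right panel); black diamonds are all 12466 (left) or 12397 (right) tested genes. The sh-CFB points lie below the sh-NC points in every class as deposited, and in all but the snRNP core after correction.

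GC content of the transcript, which moved with the library deviations, differed among the members. The median was 42.3% in hnRNPs, 40.7% in SR genes, 49.7% in U2 factors and 47.1% in the snRNP core, beside 49.3% over all tested genes. Across the 55 members, GC content and log2 fold change had a Spearman correlation of 0.14, beside 0.31 across 12397 tested genes. These are correlations over genes of the same 6 libraries and are given as a description. HNRNPM and HNRNPAB, which fell most, have a GC content of 54.9% and 54.2%, and the members with a log2 fold change of 0.00 or above (SNRPA, SF3B5 and SF3A2) one of 58.3%, 56.6% and 66.6%. The part of GC content in the differences was not tested beyond the correction.

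**Figure D4:**
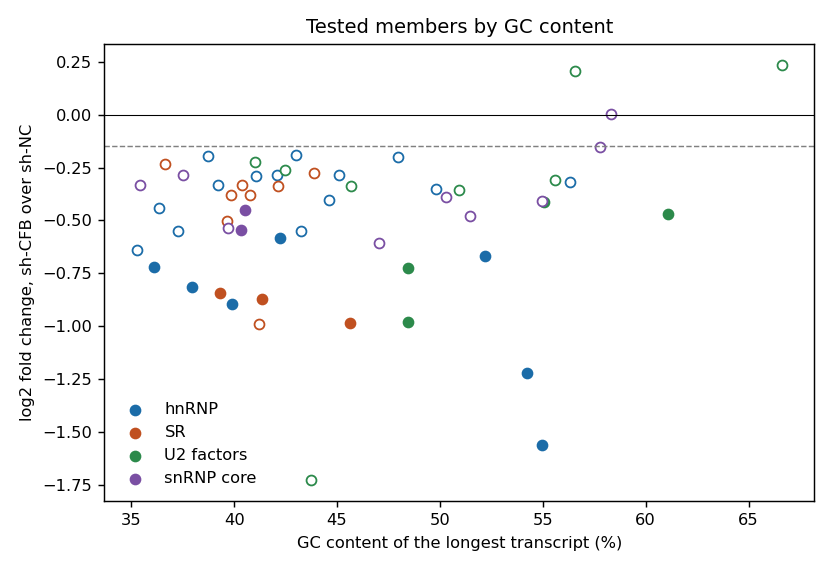
Log2 fold change (sh-CFB over sh-NC) of the 55 tested members against the GC content of the longest transcript in percent; filled circles passed the test, colours mark the class and the dashed line the median of all tested genes at -0.15. The members that fell span 36.1% to 61.1% GC.

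Other genes of the splicing machinery were read from 9 lists. Of their 153 tested genes 28 fell (18.3%, beside 5.71% of all tested genes), 0 rose with limma and 125 did not pass. The median log2 fold change was -0.35, beside -0.15 over all tested genes, and -0.13 beside 0.01 in composition-corrected values. At an unadjusted p under 0.05, 2 of the 153 genes were higher and 62 lower, beside 7.28% and 18.6% of all tested genes. In composition-corrected values 28 fell and 1 rose (SMG9, a decay factor, named after its values were seen). After quantile normalization 22 fell and 2 rose, and with a mean of at least 2 FPKM 33 of 135 fell and 2 rose. The medians of the lists in these 2 settings were -0.19 and -0.36, beside -0.01 and -0.15 over all tested genes. The count that fell was 6 with median-of-ratios factors, 18 without both replicate 1 libraries, 0 without sh-CFB replicate 2, 0 without sh-NC replicate 2, 7 without sh-NC replicate 1, 13 without sh-CFB replicate 3, 14 without sh-CFB replicate 1 and 18 without sh-NC replicate 3.

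Proteins of the U4/U6.U5 tri-snRNP, which brings the catalytic RNAs to the assembling spliceosome, had 9 of 20 lower (45.0%, beside 5.71% of all tested genes) and 11 not passing. SNRNP40, a WD-repeat protein of the U5 snRNP, averaged 9.71 ± 1.67 FPKM in sh-CFB and 20.8 ± 0.997 FPKM in sh-NC libraries (SD, n = 3 each), a log2 fold change of -1.07 (adjusted p = 0.0112). PRPF3, a U4/U6 protein, averaged 3.26 ± 0.593 and 6.51 ± 0.624 FPKM (-0.91, adjusted p = 0.0208). Of this list 6 genes fell in composition-corrected values, 3 with median-of-ratios factors and 3 without sh-NC replicate 1, and 0 passed limma's test when either replicate 2 library was left out.

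In the Prp19 complex and catalytic step factors 6 of 24 fell (25.0%, beside 5.71% of all tested genes) and 18 did not pass. PRPF19, the ubiquitin ligase that gives the complex its name, fell by 0.57 (adjusted p = 0.0131) and stood at -0.51 (adjusted p = 0.0134) in composition-corrected values. CTNNBL1 fell by 0.59 (adjusted p = 0.0141) but did not pass in composition-corrected values (-0.30, adjusted p = 0.127). With median-of-ratios factors 0 of this list passed limma's test. In the exon junction complex and nonsense-mediated decay 5 of 19 fell (26.3%, beside 5.71% of all tested genes; 1 with median-of-ratios factors) and 14 did not pass, with the core proteins MAGOHB (-0.82, adjusted p = 0.0385) and MAGOH (-0.75, adjusted p = 0.0230). MAGOH and MAGOHB are close paralogues, so reads between them may be divided with error. In the SMN complex and snRNP assembly list 2 of 16 fell (12.5%, beside 5.71%), WDR77 (-0.95, adjusted p = 0.0111) and PRMT5 (-0.47, adjusted p = 0.0284), which are known as partners in the complex that methylates Sm proteins. WDR77 passed in composition-corrected values and with median-of-ratios factors, while PRMT5 passed in neither, at -0.25 (adjusted p = 0.123) and -0.27 (adjusted p = 0.363).

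Of other splicing regulators 4 of 32 fell (12.5%, beside 5.71%), and 1 with median-of-ratios factors. TRA2B, an SR-like activator (-0.93, adjusted p = 0.0202), also passed in composition-corrected values (-0.72, adjusted p = 0.0189). ELAVL1, which binds AU-rich RNA (-0.52, adjusted p = 0.0302), did not, at -0.22 (adjusted p = 0.413) in composition-corrected values and -0.32 (adjusted p = 0.296) with median-of-ratios factors. In SR protein kinases 1 of 6 fell (16.7%, beside 5.71%), CLK2 (-0.52, adjusted p = 0.0432). The median log2 fold change of the kinases was -0.17, close to the -0.15 over all tested genes. Among other U1 and U2 snRNP-associated factors 1 of 17 fell, the branch-point binder SF1 (-0.44, adjusted p = 0.0276), a share of 5.88% that is close to the 5.71% of all tested genes. Neither CLK2 (adjusted p = 0.153) nor SF1 (adjusted p = 0.380) passed with median-of-ratios factors. No gene fell among 10 LSM proteins or 9 tested proteins of the minor spliceosome with limma, beside 5.71% of all tested genes. At an unadjusted p under 0.05, 1 and 2 of them were lower, beside 18.6% of all tested genes. The medians of the kinases and the minor spliceosome turned to 0.04 and 0.05 in composition-corrected values, and that of the LSM proteins to 0.05 with median-of-ratios factors.

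**Figure D5:**
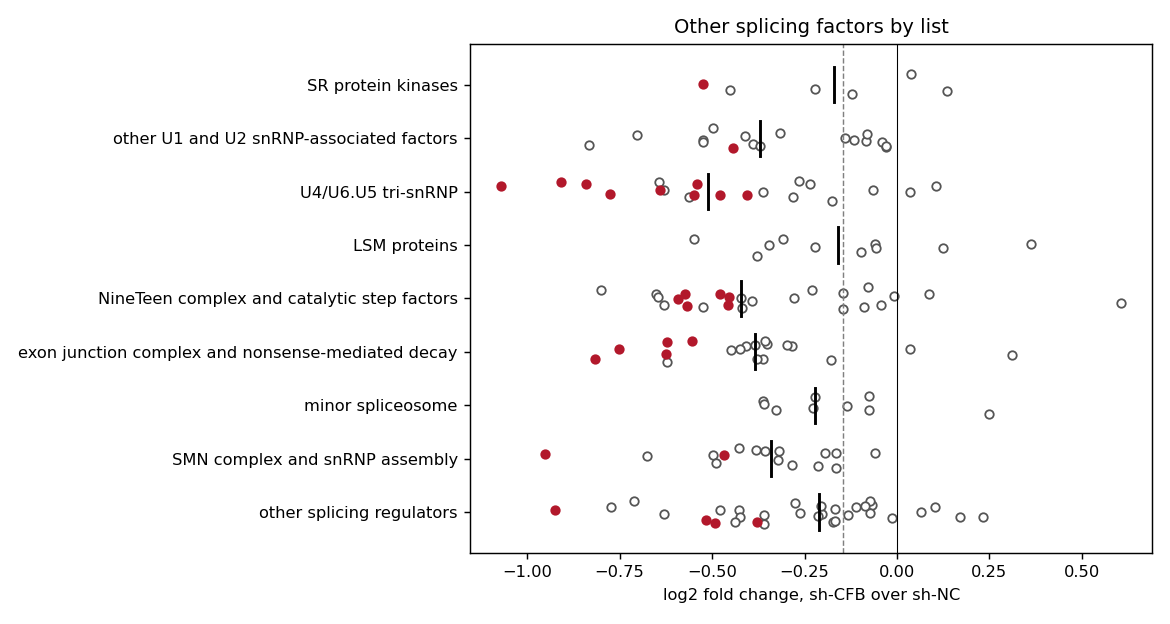
Log2 fold change (sh-CFB over sh-NC) of the tested genes of 9 other splicing lists, 1 circle per gene, filled where the gene passed the test; black bars mark list medians and the dashed line the median of all tested genes at -0.15. The lowest list median is that of the tri-snRNP at -0.51, and the LSM list lies at -0.16.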

How the data were processed

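RNA-seq was made from 3 sh-CFB and 3 sh-NC samples (TRIzol extraction, TruSeq Stranded mRNA kit, per the labels' protocols). The deposited values are FPKM per gene; the tools, per the submitters' processing notes, included STAR 2.7.3a with the build GRCh38, featureCounts 2.0.1, Trimmomatic 0.39 and FastQC 0.11.9. The sources used here do not give the strand setting, the annotation release or how multi-mapping reads were treated. Genes were placed with GENCODE 29 and named for 27772 of 28495 identifiers.

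Levels were tested as log2(FPKM + 0.5) with limma 3.58.1 (moderated, with trend; R 4.3.3) on genes with a mean of at least 0.5 FPKM, adjusted over all 12466 by Benjamini-Hochberg at 0.05. Fold changes on this scale understate low genes. Members below the filter had two-sided exact permutation tests. FPKM steps gave whole reads for 100% of genes (tolerance 0.02 reads), hence depth. With limma voom on these reads 533 genes fell and 148 rose. In the shallowest library 3 reads in a gene of 2000 bases give 0.0572 FPKM, counting error only. Composition-corrected values had smooth GC and length trends, and the library's mean shift, removed per library with mgcv 1.9.3. The limma step was tested on simulated data.

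Members and lists were chosen with earlier results of these data known. All members past the test are named, with every library's value for up to 5 per class by adjusted p and for the 2 most abundant. In each other list at most 2 are named. Alternatives changed the pseudocount, filter, scaling, GC and length, test, replicate block and libraries. Reads were assigned to U2AF1 and U2AF1L5 as the authors' table has them. Members not among the listed rows were not analysed here.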

Additional observations from a re-analysis of the deposited data

How the results depend on the processing

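The 16 members that fell kept their sign in all 18 alternatives. Their groups did not overlap, so a changed pseudocount, filter or block, or libraries left out, could not have turned it. Only the changes of scaling, composition or test could. The number of members that fell was 16 with a pseudocount of 0.1 or 1 and with equal totals, 21 with a mean of at least 2 FPKM, 17 after quantile normalization, 15 in composition-corrected values and 12 with limma voom, 9 with no filter on low values and 6 with median-of-ratios factors. Over all tested genes, 217 rose and 712 fell. The counts that rose and fell were 68 and 256 with no filter, 68 and 138 with median-of-ratios factors, 465 and 636 after quantile normalization and 600 and 759 in composition-corrected values. Leaving out 1 library gave 2 to 11 members lower, 14 to 414 genes lower and 6 to 126 higher. Replicate numbers were the only link between groups, and same-numbered libraries had correlations of their deviations of -0.54, 0.07 and -0.45. With the replicate number as a block, 0 members, 0 lower genes and 0 higher genes passed limma's test, with or without the composition correction. The sign of the log2 fold change turned in at least 1 alternative for 10 of the 55 tested members, none of which passed the test as deposited. In composition-corrected values, with or without the block, the values were 0.084 for HNRNPA1, 0.076 for HNRNPF, 4.3e-05 for HNRNPLL, 0.0067 for SF3B1, 0.0039 for SRSF8 and -0.0017 for SNRPA. With median-of-ratios factors they were 0.016 for HNRNPA1, 0.0041 for HNRNPF and 0.052 for SNRPB. Without both replicate 1 libraries they were -0.075 for SF3B5, 0.17 for SF3B6, 0.23 for SRSF11, 0.052 for HNRNPLL, 0.055 for SF3B1 and -0.20 for SNRPA. SNRPA also stood at -0.056 with equal totals and -0.020 after quantile normalization. Leaving out 1 library gave -0.30 to 0.0100 for SNRPB, -0.42 to 0.040 for SRSF11 and -0.11 to 0.14 for SNRPA. The cause was not tested. Depth limits genes near the filter, where 3 reads in a gene of 2000 bases give 0.0572 FPKM in the shallowest library. With 3 libraries a group the exact test cannot go below 0.1.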
